A study of Mus musculus with 9 samples.

Results

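The genes described here are Il33, the receptor gene Il17rb and 8 further genes of inflammation, Il1rl1, Il1rap, Il17ra, Nlrp12, Nlrp3, Tnfaip2, Tnfaip3 and Nfkbia, measured by RNA sequencing in the livers of 9 rats. They were selected by gene symbol, 10 of the 19686 genes in the count table, and each symbol matched 1 gene. Il33, Nlrp12 and Tnfaip2 were chosen on their values in the model against the control group, and Il17rb on its values in the DSS against the model group. For these 4 genes the levels and fold changes are therefore a description with no test. The other 6 genes are their receptor partners, relatives or regulators, chosen when results of this series were already known.

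Male Wistar rats were kept for 8 weeks in 3 groups, with 3 livers sequenced from each. The control group drank purified water and was given saline by gavage. The model group drank a 15% fructose solution and was given saline. The DSS group drank the same 15% fructose and was given an extract of Danggui-Shaoyao-San, a Chinese herbal formula, by gavage at 1.8 g/kg; the labels say only DSS, and the methods name the extract taken to sequencing as the one made with a methanol-water mixture. High fructose intake is used as a diet model of metabolic syndrome. All rats were fasted for 12 h, anaesthetised with chloral hydrate, and their livers frozen in liquid nitrogen. The label for organism says mouse, whereas the strain is the Wistar rat and the genes carry rat Ensembl identifiers. Nothing used here says that the 3 livers of a group were handled separately from the start, so the tests measure the spread between these 9 samples, part of which may be technical.

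IL-33 is an alarm cytokine of the IL-1 family that is stored in the nucleus and released when cells are damaged. It binds the receptor encoded by Il1rl1, which needs the shared co-receptor encoded by Il1rap to signal through MyD88 and IRAK kinases to NF-kB. Il17rb and Il17ra encode the chains of the receptor for IL-25, a cytokine of the IL-17 family that, like IL-33, is known for driving type 2 immune responses. NLRP3 is the sensor of an inflammasome that activates caspase-1, and NLRP12 is a relative described mostly as a brake on NF-kB signalling. Tnfaip2, Tnfaip3 and Nfkbia are induced by TNF through NF-kB, and the last encodes IkB-alpha, which holds NF-kB in the cytoplasm.

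The libraries held from 14345819 to 26837227 counted reads. Levels are given in CPM, reads of a gene relative to the normalised size of its library, which compare 1 gene between rats and not different genes with each other. The 6 hepatocyte markers summed to between 111342 and 178133 CPM in every liver, most of it from Alb. Of the markers of T cells and other leukocytes, mast cells, bile duct cells and red blood cells that could be tested neither edgeR nor DESeq2 called any, and of 3 B cell markers 0, 1 and 2 could be tested in the 3 comparisons. The library of model rat 1 stood apart on the second principal component, at -59.3 where the next lowest library, model rat 3, was at -16.6, so values without it are given below. A gene was called when its absolute log2 fold change was at least 0.5 and its false discovery rate (FDR) over all genes tested was at most 0.01 in edgeR's quasi-likelihood test.

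**Figure D1:**
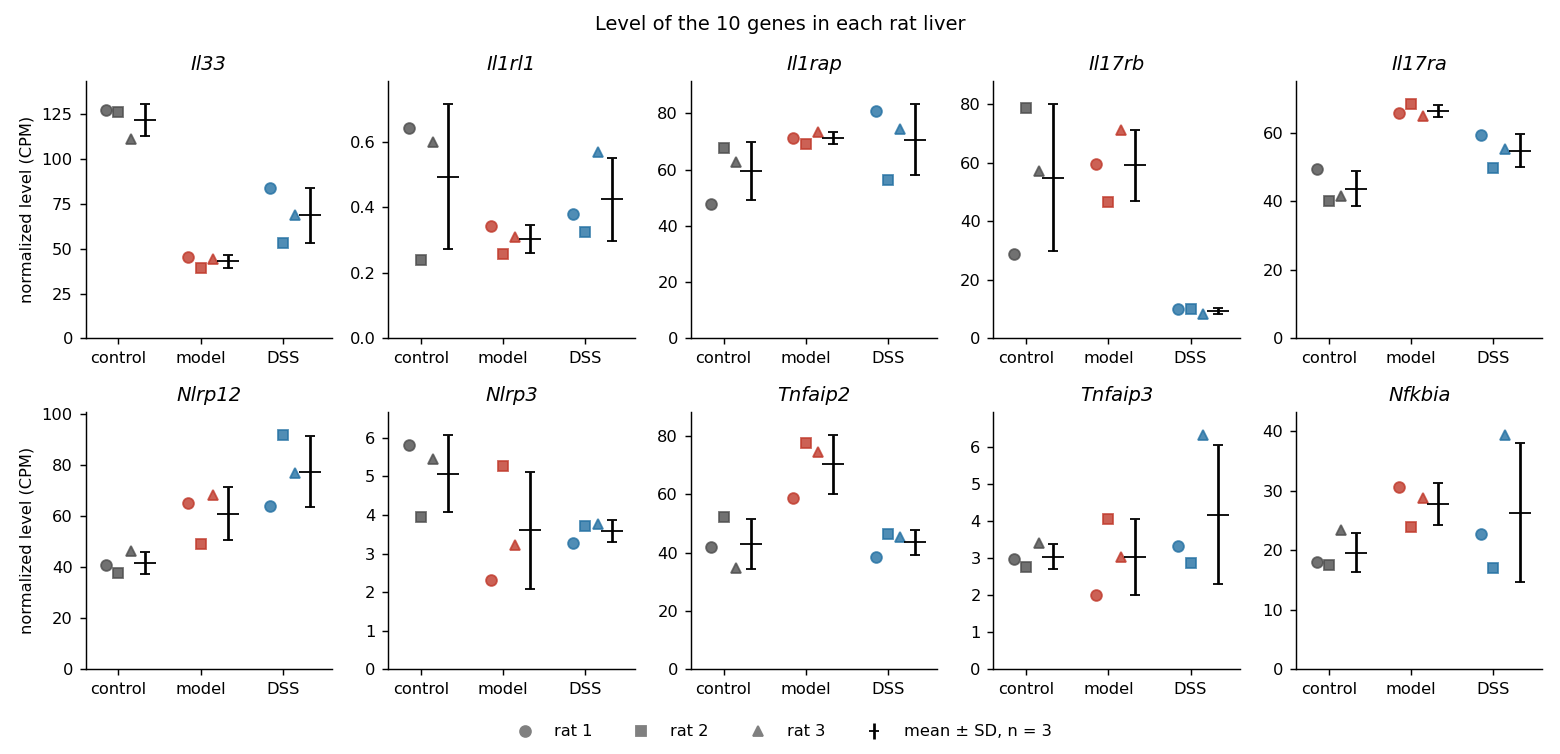
Level of the 10 genes in each liver, in normalised CPM on linear axes that start at 0, with 1 panel per gene; circles, squares and triangles are rats 1, 2 and 3 of a group, and the bar is the mean ± SD (n = 3). Il33 is highest in the control rats and lowest in the model rats, and the 3 DSS rats lie at 8.17 to 10.04 CPM for Il17rb, below every other rat.

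Il33 was lower in every model liver than in every control liver, and the DSS livers lay between them. The control rats had 128, 126 and 112 CPM of Il33, the model rats 45.5, 39.1 and 44.2 CPM, and the DSS rats 83.8, 53.2 and 68.9 CPM. No value of one group reached into another, so the order control, DSS, model held rat by rat. The group means were 122 ± 8.85 CPM in the control, 42.9 ± 3.40 CPM in the model and 68.6 ± 15.3 CPM in the DSS group (SD, n = 3 each). The model mean was thus 35.3% of the control mean and the DSS mean 56.4% of it. In whole liver, fewer cells that make a transcript and less of it per cell cannot be told apart.

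On the log2 scale the difference of Il33 between model and control was -1.50 (SE 0.13). By absolute size it ranked 173 of the 12486 genes fitted in that comparison. The difference between DSS and model was 0.68 (SE 0.18), and that between DSS and control was -0.83 (SE 0.16). Without model rat 1 the model against control value was -1.57 and the DSS against model value 0.73. The spread between rats, with a coefficient of variation of 7.27% in the control, 7.93% in the model and 22.3% in the DSS group, was larger than the 2.08% to 3.55% that counting reads alone gives. DSS rats 1 and 2 set the ends of the DSS range, and leaving out either in turn moved the DSS against model value to 0.51 or 0.84.

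Endothelial and stellate cells are, with hepatocytes, known sources of IL-33 in liver. The hepatocyte markers moved unequally. Cyp2e1, a cytochrome P450 gene, was at 1672, 1810 and 1987 CPM in the control, 1181, 1241 and 1112 CPM in the model and 3052, 2273 and 2014 CPM in the DSS rats, and Cps1, the first enzyme of the urea cycle, at 4453, 3784 and 4005 CPM, 2028, 2985 and 2249 CPM, and 4439, 3173 and 3981 CPM. Both were lower in every model rat than in every other rat, with log2 differences between model and control of -0.63 (FDR = 0.12) and -0.76 (FDR = 0.12), and between DSS and model of 1.06 (FDR = 0.074) and 0.68 (FDR = 0.38). Alb, Ttr, Serpina1 and Apoa1 overlapped between the model and each other group. Between DSS and control, Alb, Serpina1 and Cps1 overlapped, while Apoa1, Ttr and Cyp2e1 were higher in every DSS rat. Their log2 differences were 0.81 (FDR = 0.0205), 0.31 (FDR = 0.20) and 0.42 (FDR = 0.16). Of the 6, edgeR called 0 in each comparison (2, 2 and 3 at an unadjusted p under 0.05), and DESeq2 called 2 in model against control, 1 in DSS against model and 1 in DSS against control. The 7 endothelial markers in the table summed to 169 to 280 CPM in the control, 113 to 324 CPM in the model and 176 to 234 CPM in the DSS rats, so the 3 groups overlapped. The 9 stellate cell and fibroblast markers summed to 282 to 317, 214 to 325 and 269 to 378 CPM in the same order. Of the 7 and 9 marker genes 0 were called by edgeR or DESeq2 in any of the 3 comparisons (in model against control 0 and 1 at an unadjusted p under 0.05), and the part of the 3 cell types in the Il33 values was not tested.

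Il1rl1, the gene of the receptor that binds IL-33, was too low to judge. Its read counts were 16, 4 and 9 in the control, 8, 4 and 5 in the model and 7, 6 and 11 in the DSS rats, 70 reads in all. The filter on low counts, which removed genes under about 0.611 CPM in model against control and 0.542 CPM in the other comparisons, took it out of each of them. Summed over the 3 rats of a group, its level was 0.511 CPM in the control (exact 95% Poisson interval 0.343 to 0.735), 0.309 CPM in the model (0.18 to 0.494) and 0.427 CPM in the DSS group (0.273 to 0.635). The intervals, which cover counting error only, overlap for all 3 groups. When the filter was left off, the log2 difference between model and control was -0.69, with a 95% interval from -2.03 to 0.66, which spans 0, so no difference of Il1rl1 was detectable at this depth. The 6 markers of mast cells and basophils, cells known to carry this receptor, summed to 7.46 to 14.3 CPM in the control, 5.62 to 8.31 CPM in the model and 7.45 to 12.2 CPM in the DSS rats. Most of these sums came from Kit, at 4.56, 3.33 and 3.92 CPM on average, and Hdc, at 3.39, 2.79 and 4.81 CPM. Ms4a2, Cma1 and Tpsab1 were too low to test, so the sums say little about these cells.

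**Figure D2:**
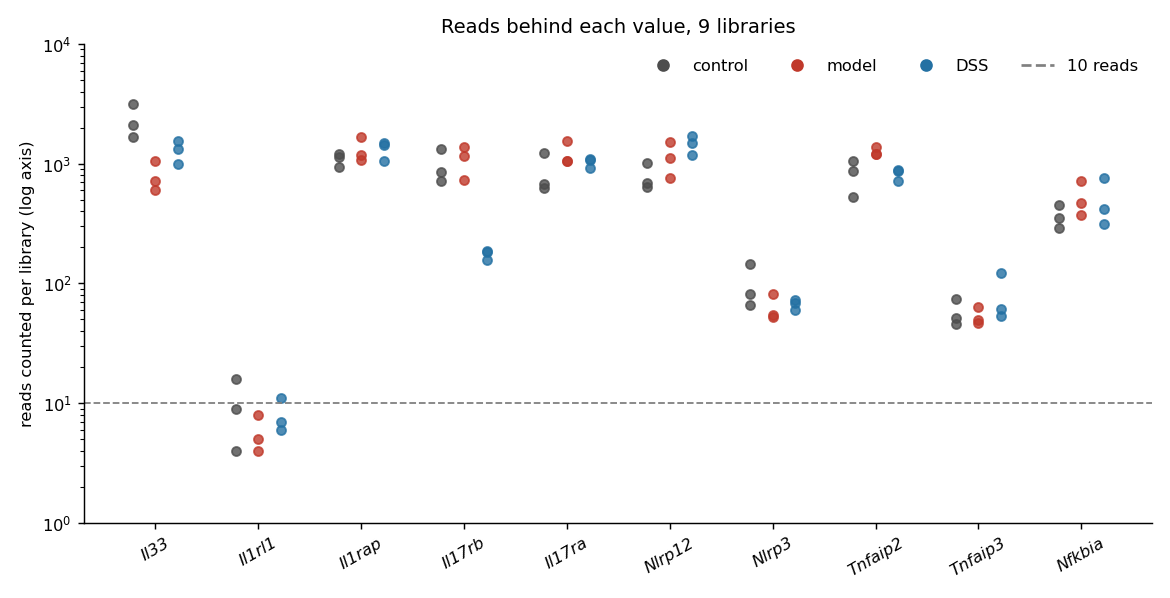
Reads counted for each gene in each of the 9 libraries, on a log axis, with colours for the 3 groups and a dashed line at 10 reads. Il1rl1 lies around the line at 4 to 16 reads, Tnfaip3 and Nlrp3 lie between 46 and 145 reads, and the other 7 genes lie higher.

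Il1rap, the co-receptor gene shared by IL-33 and IL-1, was counted well, at 941 to 1666 reads per library. It stood at 47.8, 67.6 and 62.7 CPM in the control, 71.4, 69.3 and 73.5 CPM in the model and 80.7, 56.4 and 74.6 CPM in the DSS rats. Every model rat was above every control rat, by a small margin, while the DSS rats overlapped both groups. The log2 difference between model and control was 0.27 (SE 0.16, FDR = 0.51), and that between DSS and control was 0.25 (SE 0.17, FDR = 0.41); neither passed. Between DSS and model it was -0.01, with a 95% interval from -0.37 to 0.35.

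The related IL-1 genes were taken from 2 lists, of IL-1 family ligands, receptors and decoys and of the signalling proteins below the IL-1 and Toll receptors. In model against control 0 of the 8 and 11 tested genes of these lists were called by edgeR. Il1rn, the gene of the natural IL-1 receptor antagonist, was at 9.13 ± 1.32 CPM in the control and 17.8 ± 4.51 CPM in the model rats, with no overlap and a log2 difference of 0.97 (SE 0.22, FDR = 0.12). Irak2, a kinase of the same pathway, was at 9.56 ± 0.451 CPM and 15.2 ± 1.77 CPM (log2 difference 0.66, FDR = 0.12). In DSS against control the gene of the cytokine IL-18, Il18, was lower, at 3.03 ± 0.301 CPM against 6.08 ± 0.987 CPM, with a log2 difference of -1.01 (SE 0.20, FDR = 0.021). It was past an FDR limit of 0.05, though not the limit of 0.01 used for calls; DESeq2, and edgeR with no filter on low counts, called it at 0.01. Il18 was also lower in every model rat than in every control rat, at 3.78 ± 0.844 CPM (log2 difference -0.68, FDR = 0.30). Between DSS and model its log2 difference was -0.32 (FDR = 0.84). Irak3, which restrains this signalling, was at 16.1 ± 2.39 CPM in the control, 11.8 ± 1.71 CPM in the model and 10.4 ± 2.01 CPM in the DSS rats. Its log2 difference was -0.45 (FDR = 0.35) in model against control, -0.18 (FDR = 0.89) in DSS against model and -0.63 (FDR = 0.065) in DSS against control.

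Il17rb was low in all 3 DSS livers. Its level was 28.9, 78.8 and 57.3 CPM in the control, 59.5, 46.7 and 71.2 CPM in the model, and 10.01, 10.04 and 8.17 CPM in the DSS rats. The control and model rats overlapped widely, and no DSS rat reached the lowest of them. The means were 55.0 ± 25.04 CPM in the control, 59.1 ± 12.3 CPM in the model and 9.41 ± 1.07 CPM in the DSS group (SD, n = 3 each). The DSS mean was 15.9% of the model mean and 17.1% of the control mean. In reads this was 158 to 186 per DSS library against 720 to 1389 in the other 6 libraries.

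The log2 difference of Il17rb between DSS and model was -2.65 (SE 0.20), rank 37 of 12502 genes by absolute size, and between DSS and control -2.55 (SE 0.38). Leaving out each rat in turn gave -2.80 to -2.49 for DSS against model and -2.86 to -2.19 for DSS against control. Without model rat 1 the DSS against model value was -2.64. Between model and control the difference was 0.11 (SE 0.34), with a 95% interval from -0.67 to 0.89. Its sign there rested on single rats: it was -0.20 without control rat 1, -0.04 without model rat 3 and 0.46 without control rat 2, and -0.02 when libraries were scaled by their size alone. Control rat 1 held the lowest of the 6 control and model values, and control rat 2 the highest.

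**Figure D3:**
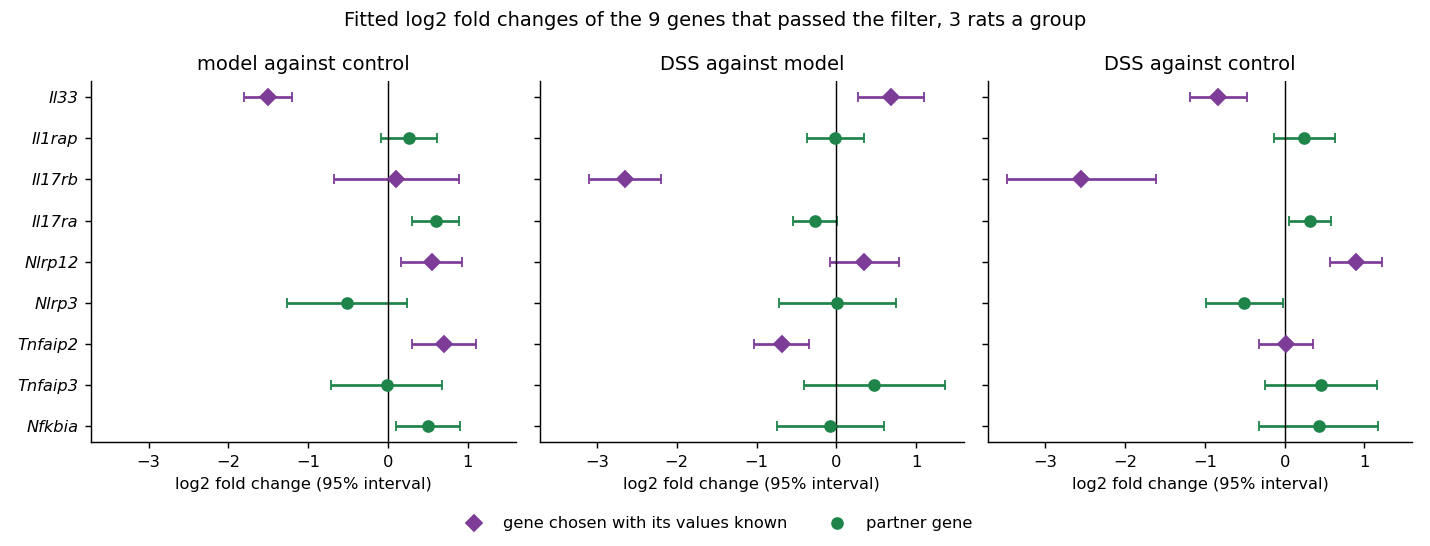
Log2 fold change with its 95% interval for the 9 genes that passed the filter on low counts, in model against control, DSS against model and DSS against control (3 rats a group); diamonds are the 4 genes chosen with their values known, circles their partners, and the vertical line is no difference. Il33 lies to the left of the line in both comparisons with the control and to the right in DSS against model, and Il17rb lies beyond -2 in both comparisons of the DSS group.

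Il17ra, the chain that Il17rb pairs with and that most IL-17 receptors share, had another order of the groups. Its level was 49.5, 40.2 and 41.6 CPM in the control, 65.9, 68.3 and 64.8 CPM in the model, and 59.4, 49.9 and 55.2 CPM in the DSS rats. The groups did not overlap in any comparison, and the DSS rats lay between the control and the model rats. The means were 43.8 ± 4.99, 66.3 ± 1.81 and 54.8 ± 4.77 CPM. The log2 difference was 0.60 (SE 0.13, FDR = 0.10) between model and control, -0.27 (SE 0.12, FDR = 0.65) between DSS and model, and 0.32 (SE 0.12, FDR = 0.13) between DSS and control. None passed in edgeR's test, whereas DESeq2 called model against control with an FDR of 0.00997. Over all settings tried, the FDR of model against control ran from 0.00997 to 0.32.

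Of the other IL-17 family ligands, receptors and adaptors, 10 of 13 were in the count table, 5 were tested, and 0 were called in any comparison. The ligand Il17a and the receptor genes Il17rd and Il17re were among those too low to test, while Il25 was not analysed here. Il17rc, another partner of Il17ra, was at 17.1 ± 1.87 CPM in the control, 13.7 ± 1.798 CPM in the model and 15.7 ± 0.686 CPM in the DSS rats; its log2 difference was -0.33 (FDR = 0.46) in model against control and 0.21 (FDR = 0.83) in DSS against model. Of 13 type 2 response genes 9 were in the count table, 4 were tested, and 0 were called. Il4r, which carries the receptor for IL-4, was at 177 ± 6.16 CPM in the model and 135 ± 25.4 CPM in the DSS rats (log2 difference -0.38, FDR = 0.62), and Stat6, the transcription factor below it, at 15.8 ± 7.54 and 27.3 ± 5.34 CPM (log2 difference 0.80, FDR = 0.62).

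Of the 11 genes on the IL-17 response list 7 were in the count table and 6 were tested. Il6, Csf3, Ccl20 and Cxcl3 were not analysed here, and Cxcl2 was too low to test. The 6 tested genes had a median log2 difference of 0.54 in model against control, with 5 of 6 above 0. In DSS against model it was -0.78, with 0 of 6 above 0. The medians over all genes tested were -0.0011 and 0.00078. edgeR called 0 of the 6 in either comparison, and the comparisons share the model rats. The groups overlapped for every one of the 6 genes in both, where for 21.1% and 14% of all genes tested they did not. Without model rat 1, an alternative chosen after seeing the data, the medians were 0.34, with 4 of 6 above 0, and -0.39, with 0 of 6 above 0. Lcn2, an acute-phase protein gene, was then at a log2 difference of -0.40 from the control in place of 0.55, and Cebpb, a transcription factor, at 0.25 in place of 0.82. Cxcl1, a chemokine that attracts neutrophils, was named after its values were seen. It was at 0.401, 1.61 and 0.799 CPM in the control, 6.21, 13.0 and 1.30 CPM in the model and 1.63, 0.540 and 1.55 CPM in the DSS rats. Model rats 1 and 2 were high and model rat 3 was not, and the log2 difference between model and control was 2.89 (SE 0.82, FDR = 0.18), called by DESeq2 and not by edgeR.

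Nlrp12 was lowest in the control livers. It was at 40.8, 37.8 and 46.2 CPM in the control, 65.3, 49.0 and 68.3 CPM in the model, and 63.8, 91.7 and 76.8 CPM in the DSS rats. All model and DSS rats were above all control rats, and the model and DSS rats overlapped. The means were 41.6 ± 4.23, 60.9 ± 10.4 and 77.4 ± 13.9 CPM, which put the model at 146% and the DSS group at 186% of the control. The log2 differences were 0.55 (SE 0.17) in model against control, 0.35 (SE 0.19) in DSS against model and 0.89 (SE 0.14) in DSS against control. Without model rat 1 the first was 0.48 and the second 0.41. The smallest gap in model against control lay between control rat 3 and model rat 2.

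Nlrp3 was counted at 52 to 145 reads per library, and had at most 5.81 CPM in any liver. Its level was 5.81, 3.94 and 5.46 CPM in the control, 2.31, 5.28 and 3.21 CPM in the model and 3.26, 3.73 and 3.77 CPM in the DSS rats. The DSS rats lay just below the control rats, and the model rats spread across both. The log2 difference was -0.51 (SE 0.33, FDR = 0.55) between model and control and -0.51 (SE 0.21, FDR = 0.18) between DSS and control, and neither passed. Between DSS and model it was 0.01 with a 95% interval from -0.72 to 0.75, and its sign turned, to -0.23, without model rat 1. Without model rat 1 the model against control value was -0.28, and without model rat 2 it was -0.89.

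Of 20 other genes of NOD-like receptors and the inflammasome, 17 were in the count table. In model against control, DSS against model and DSS against control 14, 13 and 15 were tested, and edgeR called 0. P2rx7, an ATP-gated channel known to trigger the NLRP3 inflammasome, was at 27.9 ± 2.09 CPM in the control, 27.6 ± 5.88 CPM in the model and 43.4 ± 5.89 CPM in the DSS rats. Its log2 difference between DSS and control was 0.63 (SE 0.13, FDR = 0.021), past 0.05 and not 0.01 in this fit; DESeq2, and edgeR with no filter on low counts, called it at 0.01. The difference between DSS and model was 0.66 (SE 0.19, FDR = 0.37). Casp1, the gene of caspase-1, was at 4.10 ± 1.35, 3.58 ± 1.43 and 3.78 ± 0.182 CPM in the 3 groups and was named for its role. The markers of Kupffer cells and macrophages, in which inflammasome genes are known to be expressed, summed to 474 to 964 CPM in the control, 360 to 750 CPM in the model and 475 to 669 CPM in the DSS rats. Marco, 1 of these markers, was at 38.0, 9.30 and 20.7 CPM on average. Its log2 difference was -2.03 (FDR = 0.31) in model against control, where the groups overlapped and the median of the 11 markers was -0.23. In DSS against model it was 1.15 (FDR = 0.67), where the median was 0.056. The neutrophil markers summed to 1.73 to 2.53, 2.83 to 4.38 and 2.28 to 4.65 CPM, with Mpo at 0 or 1 read in each library. In this sum every model rat was above every control rat, and the DSS rats overlapped both groups. The sum averaged 2.04, 3.86 and 3.61 CPM, of which S100a9 made up 0.711, 1.89 and 1.93 CPM. Of either marker list 0 genes were called by edgeR or DESeq2 (1 of each at an unadjusted p under 0.05 in model against control), and their part in the Nlrp12 values was not tested.

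Tnfaip2 was higher in the model rats than in both other groups. It was at 42.1, 52.1 and 34.9 CPM in the control, 58.9, 77.5 and 74.5 CPM in the model, and 38.6, 46.5 and 45.4 CPM in the DSS rats. Every model rat was above every other rat, and the control and DSS rats overlapped. The means were 43.0 ± 8.66, 70.3 ± 10.004 and 43.5 ± 4.27 CPM. The log2 difference was 0.70 (SE 0.18) in model against control and -0.68 (SE 0.15) in DSS against model; both use the same model rats. Without model rat 1 these values were 0.80 and -0.80. Between DSS and control it was 0.01, with a 95% interval from -0.33 to 0.35.

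Tnfaip3, which encodes a deubiquitinase that shuts off NF-kB signalling, was counted at 46 to 122 reads per library. It was at 2.97, 2.75 and 3.40 CPM in the control, 2.01, 4.05 and 3.02 CPM in the model and 3.32, 2.86 and 6.31 CPM in the DSS rats. One liver, DSS rat 3, was high and the other 8 overlapped. The log2 difference was -0.02 (SE 0.31, FDR = 0.99) between model and control, where the sign turned to 0.20 without model rat 1, and 0.48 (SE 0.38, FDR = 0.84) between DSS and model. Between DSS and control it was 0.46 (SE 0.31, FDR = 0.41). Without DSS rat 3 the last 2 values were 0.05 and 0.04.

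Nfkbia was higher in all model rats than in all control rats, without passing the test. Its level was 18.0, 17.4 and 23.4 CPM in the control, 30.7, 23.9 and 28.8 CPM in the model and 22.7, 17.0 and 39.3 CPM in the DSS rats. Model rat 2 and control rat 3 differed by little, and the DSS rats spread over the whole range, with DSS rat 3 the highest of the 9. The log2 difference between model and control was 0.51 (SE 0.18, FDR = 0.27). That between DSS and control was 0.43 (SE 0.31, FDR = 0.46) and was 0.03 without DSS rat 3. Between DSS and model it was -0.07 (SE 0.29, FDR = 0.97), and it was -0.48 without DSS rat 3 and 0.01 without model rat 1.

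Around these TNF and NF-kB genes, 3 lists held as tested genes 18 NF-kB subunits, kinases and inhibitors, 12 TNF receptors and adaptors and 9 inflammatory targets of NF-kB, and edgeR called 0 in any comparison. In DSS against control their medians were 0.0075, -0.03 and -0.27 on the log2 scale, beside -0.008 over all genes tested. Map3k14, the kinase of the alternative NF-kB pathway, was at 5.36 ± 0.773 CPM in the model and 10.8 ± 3.98 CPM in the DSS rats (log2 difference 1.01, FDR = 0.38). Birc2, an inhibitor of apoptosis in the TNF receptor complex, was at 32.1 ± 3.05 and 54.7 ± 16.6 CPM (log2 difference 0.77, FDR = 0.38). Between DSS and control the groups did not overlap for 4 higher and 3 lower genes of the first list. For the second list these were 2 and 3, and for the third 1 and 2, beside 30.2% of all genes tested. Among the higher were Map3k14 (log2 difference 0.86, FDR = 0.081), Ripk1 of the second list (0.49, FDR = 0.084) and Vcam1 of the third (0.58, FDR = 0.14). Some were lower in every DSS rat than in every control rat, and none in either direction passed the test. Ikbke, a kinase related to those of the IkB kinase complex, was at 15.2 ± 1.33 CPM in the control and 10.8 ± 0.815 CPM in the DSS rats (log2 difference -0.49, FDR = 0.060). The transcription factor gene Irf1 was at 21.98 ± 3.84 and 14.6 ± 3.13 CPM (-0.59, FDR = 0.095), and Sod2, the mitochondrial superoxide dismutase gene, at 150.1 ± 5.54 and 122 ± 1.71 CPM (-0.31, FDR = 0.092). Tnip1, whose product works with that of Tnfaip3, was at 25.7 ± 2.72 CPM in the control, 32.9 ± 0.618 CPM in the model and 34.0 ± 1.30 CPM in the DSS rats, with log2 differences from the control of 0.36 (FDR = 0.31) and 0.40 (FDR = 0.072).

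**Figure D4:**
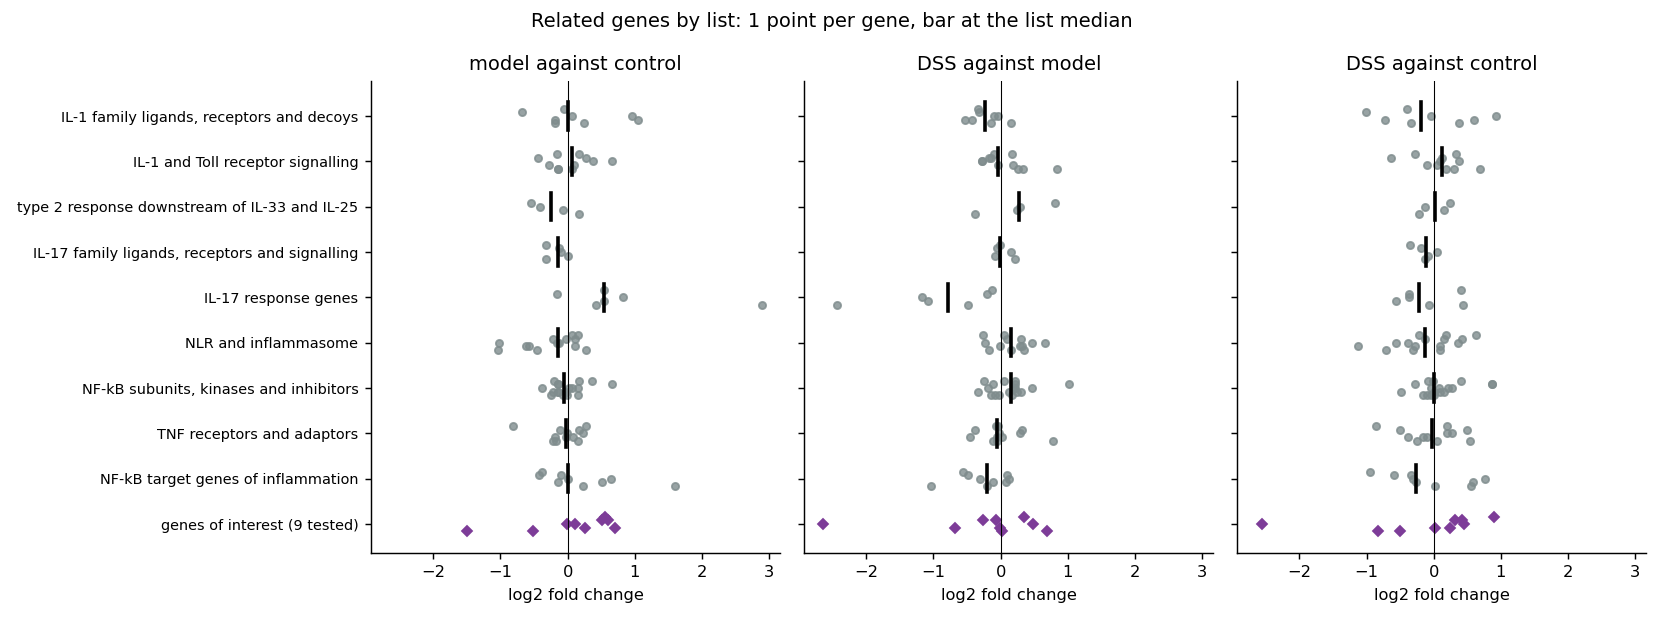
Log2 fold change of each tested gene of the 9 lists of related genes (grey points, 1 per gene, with a bar at the list's median) and of the 9 tested genes of interest (purple diamonds), in the 3 comparisons. Most list genes lie within 1 of the line at 0, and the IL-17 response genes have their medians at 0.54, -0.78 and -0.22.

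Read over the 10 genes, 9 were tested in each comparison. In model against control 1 of them, Il33, was called, where 0.0801% of all 12486 genes were, and 1 passed an FDR of 0.05, where 0.601% of all genes did. In DSS against model 1, Il17rb, was called against 0.136% of 12502 genes, and 1 passed an FDR of 0.05 against 0.456%. In DSS against control 1, Nlrp12, was called against 1.48% of 12633 genes, and 3, Il33, Il17rb and Nlrp12, passed an FDR of 0.05 against 6.36%. Nothing is read from these counts, because the called genes are among those chosen with their values known. The groups did not overlap for 6 of the 10 genes in model against control (5 higher and 1 lower), 4 in DSS against model (1 higher and 3 lower) and 5 in DSS against control (2 higher and 3 lower), where 21.1%, 14% and 30.2% of all genes tested did not. Il33, Nlrp12 and Tnfaip2 were among the 6, Il33, Il17rb and Tnfaip2 among the 4, and Il33, Il17rb and Nlrp12 among the 5. These were chosen with their values known, and the 10 include Il1rl1, which was not tested, so nothing is read from these counts either.

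When each rat was left out in turn, the log2 differences ran as follows: -1.57 to -1.44 for Il33 in model against control, -2.80 to -2.49 for Il17rb in DSS against model and 0.76 to 1.02 for Nlrp12 in DSS against control. Whether they counted among the called genes in these smaller fits is no test of genes chosen on their values. Il33 counted only without model rat 1, Il17rb without any 1 of the 3 model rats and not without a DSS rat, and Nlrp12 only without DSS rat 1. The 9 related lists hold 132 genes, of which 114 were found by symbol in the count table and the others were not analysed here. Over these lists 0 genes were called by edgeR in any comparison. At an unadjusted p under 0.05 they held 11 of 87 tested genes (12.6%) in model against control, 9 of 86 (10.5%) in DSS against model and 23 of 88 (26.1%) in DSS against control, beside 13.2%, 8.02% and 24.3% of all genes. DESeq2 called 1, 0 and 2 of them.

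The genes whose levels ran most like those of Il33 and Il17rb over the 9 libraries were found by Pearson's r of log2(CPM + 1) among 8868 other genes with a mean of at least 5 CPM. The 9 points come from 3 groups, so r takes in the differences between groups, and it is a description with no test. For Il33 the highest were Dop1b (r = 0.962), Snx25 (0.939), Aldh3a2 (0.932), Maco1 (0.926) and Erlin1 (0.925). Dop1b was at 17.3 ± 1.20 CPM in the control, 7.48 ± 0.826 CPM in the model and 10.6 ± 1.99 CPM in the DSS rats, the same order as Il33. The other 4 had the same order of means with smaller differences, as for Aldh3a2, a fatty aldehyde dehydrogenase, at 598 ± 18.4, 521 ± 23.7 and 546 ± 25.3 CPM.

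For Il17rb the highest were Tm6sf2 (r = 0.985), Gpi (0.971), Slc2a5 (0.971), Eno1 (0.97) and Slc16a13 (0.969), each lowest in the DSS group. Tm6sf2, known for its part in the export of liver lipid, was at 47.9 ± 5.04 CPM in the control, 49.4 ± 2.93 CPM in the model and 22.1 ± 0.066 CPM in the DSS rats. Slc2a5, the gene of a fructose transporter, was at 19.1 ± 3.53, 28.5 ± 5.57 and 4.86 ± 1.16 CPM. Gpi and Eno1 encode enzymes of glycolysis; Gpi was at 199 ± 39.2, 244 ± 44.4 and 88.7 ± 3.84 CPM, and Eno1 at 383 ± 49.6, 398 ± 31.6 and 203 ± 12.4 CPM. In the DSS group Il17rb and Slc2a5 were the lowest of the 6 relative to their control means.

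**Figure D5:**
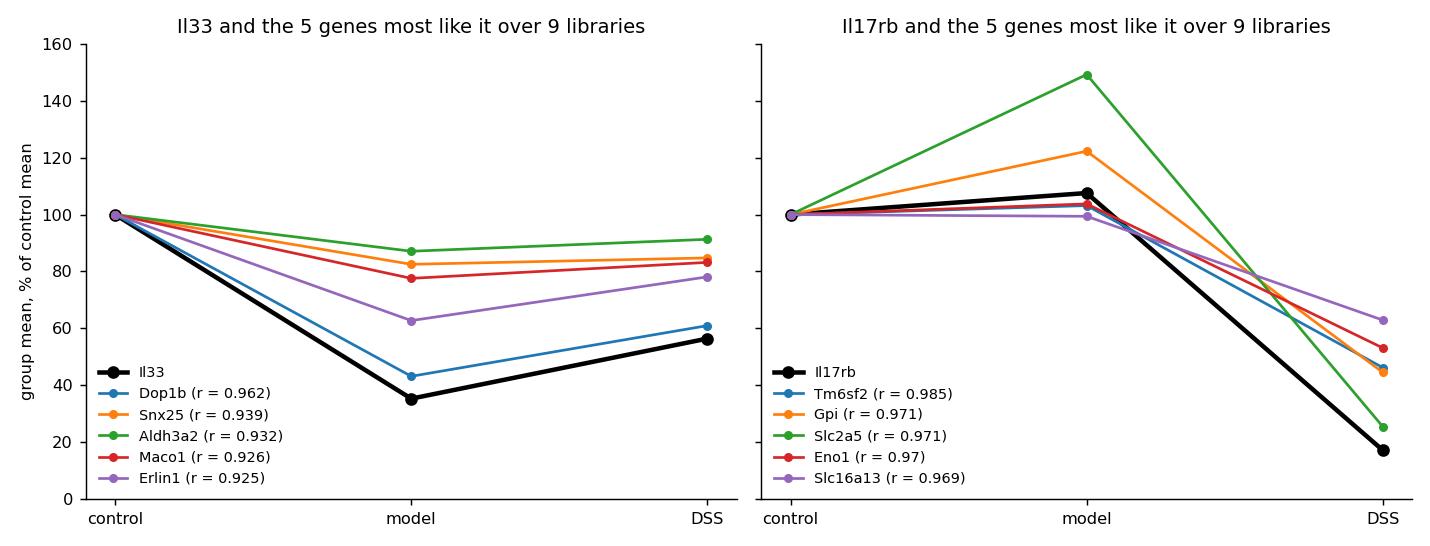
Group means of Il33 (left) and Il17rb (right), black lines, with those of the 5 genes most like each over the 9 libraries, as a percentage of the gene's control mean. Il33 stands at 35.3% in the model and 56.4% in the DSS group, and Il17rb at 17.1% in the DSS group, below the genes plotted with them.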

How the data were processed

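Liver mRNA of 9 rats (3 control, 3 model, 3 DSS, as numbered in the labels) was captured on oligo(dT) beads, primed with random hexamers and sequenced on an Illumina platform. The authors aligned the reads with HISAT2 and used HTSeq 0.6.1 to count those on exons, ignoring strand; the submitters' processing notes name Rnor_6.0. The deposited values are raw read counts per gene, with no normalization. Reads of genes that overlap on opposite strands cannot be separated. A second deposited table, of assembled transcripts, was not used, and the reference supplied was of the mouse and was not used, so no sequence or position is given.

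From these counts, each pair of groups was fitted with edgeR 4.0.16 (R 4.3.3; filterByExpr, TMM factors from 0.871 to 1.14, robust glmQLFit, two-sided glmQLFTest) on its 6 libraries, with Benjamini-Hochberg FDR over all genes tested. Calls used the study's limits, 0.5 for the absolute log2 fold change and 0.01 for the FDR. The study used DEGseq and DESeq; DESeq2 1.42.0 was an alternative here, with other scalings, filters, a block on replicate number and each rat left out. The code was tested on simulated data. Library pairs within a group differed by more than sampling noise (chi-square per gene from 19.6 to 70.8), so each counted as 1 sample. A gene removed by the filter was taken as too low to judge.

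The 10 genes, the 9 lists and the marker lists were chosen with earlier results of these data known. Besides the 10, the rule named list genes that were called, up to 3 per list and comparison with the largest log2 fold change, a mean of at least 50 reads and groups that did not overlap, and the 5 genes most like Il33 and Il17rb; the text names some of these.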

Additional observations from a re-analysis of the deposited data

How the results depend on the processing

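The 9 tested genes in 3 comparisons gave 27 log2 differences, each recomputed under 14 alternatives, 378 values in all. Of these, 364 kept their direction and side of the threshold or moved by less than the spread between rats. Of the rest, 12 of partner genes turned their sign, 1 moved further and 1 of a partner gene newly passed. The last was Il17ra in model against control by DESeq2. For the 4 genes chosen on their values this scoring left out the side of the threshold, which did change. Il33 in model against control was called in 8 of the 14 alternatives, Il17rb in DSS against model in 10 and Nlrp12 in DSS against control in 6. In DSS against control Il33 and Il17rb, not called in the main fit, were called in 3 and 5. These counts show how calls depend on the setting and are no test of genes chosen with their values known. Il33 in model against control was -1.65 when libraries were scaled by size alone. Under that scaling the median of all genes was -0.145 in that comparison and -0.144 in DSS against control. In the main fit these medians were -0.0011 and -0.008. The 12 belong to 4 differences near 0: Nlrp3 in DSS against model was -0.018 with size scaling and -0.23 to 0.39 with each rat left out, and with rats left out Tnfaip3 in model against control ran from -0.28 to 0.20, Il1rap in DSS against model from -0.12 to 0.13, and Nfkbia in DSS against model from -0.48 to 0.16. Within the spread between rats, Il17rb in model against control kept its sign in 11 of 14 alternatives and Tnfaip2 in DSS against control in 9 of 14.

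Counts of called genes depended on the setting. In model against control (10 called) the count was 71 with no filter, 256 by DESeq2, 25 with all 9 libraries in 1 fit, 0 with the replicate number as a block, 75 at an FDR of 0.05, and 0 to 10 with each rat left out. In DSS against model (17) it was 11 with size scaling, 38 with no filter, 147 by DESeq2, 7 with the block, 57 at 0.05 and 2 to 12 with rats left out. In DSS against control (187) it was 489 with no filter, 769 by DESeq2, 113 in 1 fit, 104 with the block, 804 at 0.05 and 86 to 132 with rats left out. Of the list genes, DESeq2 called 1 in model against control; in DSS against control 2 were called with no filter, 2 by DESeq2 and 2 at 0.05. The causes were not tested.

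Same-numbered rats did not deviate together (correlations from -0.232 to -0.0206), so the numbers are not a pairing; with the block Il33 in model against control was -1.50, Il17rb in DSS against model -2.63 and Nlrp12 in DSS against control 0.88. Depth limits Il1rl1.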

Other observations

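Levels of several genes of the lists, of the 10 genes and of the markers are given here as values, and the genes were named after they were seen. Cebpb, a transcription factor of the acute phase and the IL-17 response, was at 74.9, 77.0 and 113 CPM in the control, 254, 136 and 77.2 CPM in the model and 79.3, 63.2 and 63.5 CPM in the DSS rats. Cxcl10, a chemokine of the interferon response, was at 8.36 CPM in model rat 2 and between 0.836 and 3.16 CPM in the other 8 livers. Lcn2 was at 7.58 CPM in model rat 1 and at most 3.60 CPM elsewhere. Il1rn, Tnfaip3 and Nfkbia each had their highest level of the 9 livers in DSS rat 3, at 25.2, 6.31 and 39.3 CPM, and Il17rb did not, at 8.17 CPM its lowest. S100a9, a neutrophil protein gene, was at 0.711 CPM in the control, 1.89 CPM in the model and 1.93 CPM in the DSS group on average, with 10 to 46 reads per library and no call. Every model and DSS rat was above every control rat, with log2 differences from the control of 1.39 (FDR = 0.16) and 1.42 (FDR = 0.064). Other neutrophil markers did not share this. Csf3r averaged 0.691, 1.25 and 0.847 CPM in the control, model and DSS groups. S100a8 averaged 0.446, 0.592 and 0.744 CPM, and Cxcr2 0.175, 0.133 and 0.0706 CPM. Each of these overlapped between the groups in every comparison.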
